A study of Mus musculus with 12 samples.

Results

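The 9 genes described here encode small leucine-rich proteoglycans: Dcn, Bgn, Aspn, Lum, Fmod, Omd, Prelp, Ogn and Podn. They were taken by symbol from a table of 24207 genes, and each symbol was found in 1 row. Their transcripts were counted by RNA-seq in mouse embryonic fibroblasts of strain C57BL/6 after 7 days of treatment. All cells carried the constructs FUW-OSKM and FUW-M2rtTA, through which doxycycline switches on Oct4, Sox2, Klf4 and cMyc (OSKM), the factors that can turn fibroblasts into pluripotent stem cells. There were 4 groups of 3 libraries: doxycycline with hairpin RNAs against Trim28 and Setdb1 (both hairpins), doxycycline with the hairpin against Trim28, doxycycline with a scrambled hairpin (induced controls), and no doxycycline with a scrambled hairpin (uninduced controls). Trim28 is a corepressor recruited to DNA by zinc finger proteins, and Setdb1 is a histone methyltransferase that works with it. The comparisons ask how induction of the factors and hairpins against these repressors went with expression. The cells stood on a layer of irradiated feeder fibroblasts, and the labels do not say whether the feeders were removed, so feeder transcripts cannot be told apart from those of the treated cells. The labels also do not say that replicates were separate cultures, so the p-values measure the spread between these libraries, which may be technical.

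Small leucine-rich proteoglycans are secreted proteins whose curved, repeat-built core lies on collagen fibrils and sets fibril width and spacing. Many carry chondroitin, dermatan or keratan sulfate chains, and several hold growth factors such as TGF-beta or bind receptors at the cell surface. Connective tissue cells, fibroblasts among them, are their main source. The family is sorted into classes by sequence: decorin (Dcn), biglycan (Bgn) and asporin (Aspn) belong to class I, lumican (Lum), fibromodulin (Fmod), osteomodulin (Omd) and Prelp to class II, osteoglycin (Ogn) to class III and podocan (Podn) to the noncanonical class V.

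Many of the genes lie side by side. In the deposited table, for which no genome build was given in the sources used here, Aspn (ENSMUSG00000021388, chromosome 13, 49544443 to 49567557), Omd (ENSMUSG00000048368, 49582766 to 49592609) and Ogn (ENSMUSG00000021390, 49608071 to 49624500) follow each other with gaps of 15.2 and 15.5 kb. Dcn (ENSMUSG00000019929, chromosome 10, 97479500 to 97518162) and Lum (ENSMUSG00000036446, 97565501 to 97572703) are 47.3 kb apart. Prelp (ENSMUSG00000041577, chromosome 1, 133910304 to 133921414) and Fmod (ENSMUSG00000041559, 134037254 to 134048277) are 115.8 kb apart. Bgn (ENSMUSG00000031375) is at 73483602 to 73495933 on chromosome X and Podn (ENSMUSG00000028600) at 108014791 to 108096445 on chromosome 4. In GENCODE M21, an annotation of the build GRCm38, Prelp and Podn are on the minus strand and the other 7 on the plus strand. Cenpp spans Aspn, Omd and Ogn on the opposite strand, but shares only 7 exon bases with Aspn, which is 0.3% of its exons, and none with Omd or Ogn. The antisense gene Gm15851 covers 9.7% of the exon bases of Prelp and had 18 reads over the 12 libraries. Nothing says that reads were counted by strand, and reads in these overlaps cannot be told apart.

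RefSeq (build GRCm38.p6) gave promoters, from 250 bases before to 50 bases after a start, for 7 of the 9 genes, with none for Dcn and Lum. The promoters of the 3 chromosome 13 neighbours are shown because these genes had much the same profile over the libraries, and that of Fmod because it fell furthest with induction. Aspn is from chr13:49544193-49544492, Omd from chr13:49582212-49582511, Ogn from chr13:49607765-49608064 and Fmod from chr1:134037004-134037303, all on the plus strand and written 5′ to 3′. Capitals mark TATAAA on either strand in Aspn, the run TTGAATTCCAC in Omd and Ogn, and the run TTATTCAGCAG in Ogn and Fmod.
Aspn: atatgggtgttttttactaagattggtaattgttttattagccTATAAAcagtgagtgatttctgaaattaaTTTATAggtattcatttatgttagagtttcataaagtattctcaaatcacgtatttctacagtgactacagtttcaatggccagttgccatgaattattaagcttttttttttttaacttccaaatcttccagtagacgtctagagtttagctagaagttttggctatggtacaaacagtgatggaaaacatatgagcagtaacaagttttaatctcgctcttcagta
Omd: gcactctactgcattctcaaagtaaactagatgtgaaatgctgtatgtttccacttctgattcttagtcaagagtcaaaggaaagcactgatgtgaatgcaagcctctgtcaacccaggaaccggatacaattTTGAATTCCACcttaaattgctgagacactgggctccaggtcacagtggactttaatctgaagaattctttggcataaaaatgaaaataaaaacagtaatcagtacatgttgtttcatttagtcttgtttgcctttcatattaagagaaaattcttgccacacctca
Ogn: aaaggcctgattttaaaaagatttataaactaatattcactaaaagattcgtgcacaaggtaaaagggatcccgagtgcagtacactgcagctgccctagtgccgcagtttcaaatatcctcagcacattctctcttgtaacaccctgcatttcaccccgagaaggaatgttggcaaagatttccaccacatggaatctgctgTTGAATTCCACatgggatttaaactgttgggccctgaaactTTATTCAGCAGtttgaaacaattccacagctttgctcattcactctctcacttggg
Fmod: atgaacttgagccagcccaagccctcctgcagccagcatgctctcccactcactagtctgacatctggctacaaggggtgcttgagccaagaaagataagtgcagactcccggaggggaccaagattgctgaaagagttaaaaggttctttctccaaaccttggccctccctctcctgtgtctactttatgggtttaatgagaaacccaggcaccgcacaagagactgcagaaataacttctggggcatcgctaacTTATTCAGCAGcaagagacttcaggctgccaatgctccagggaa
The GC content of these promoters was 31.0% in Aspn, 37.7% in Omd, 42.3% in Ogn and 51.0% in Fmod, against a median of 52.7% over 32851 promoters of the same length. Only 1.4% of all promoters had a GC content as low as that of Aspn or lower. Bgn had 63.7%, Prelp 55.3% and the higher of the 2 entries of Podn 77.0%. Counting the start as position 1 and the base before it as -1, TTATTCAGCAG began at 7 in Fmod and at -6 in Ogn, and TTGAATTCCAC began at -47 in Ogn and at -117 in Omd. These 11-base runs were picked because the promoters share them. Searched on both strands, the first was in 10 of the 32851 promoters (0.0304%) and the second in 5 (0.0152%). These counts include the promoters the runs were picked from. How often a run of this length is found by chance was not tested. A longer run of 13 bases, GGCCCTCCCTCTC, was shared by Fmod and Podn.

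Short motifs were searched on both strands as well. TATAAA, the letters of the TATA box, was found in Aspn and Ogn and in 13.6% of all promoters. In Aspn the matches began at -207 on the plus strand and at -178 on the minus strand. The matches of both genes thus lay far before the start. The CCAAT box, CCAAT, was found in Aspn, Fmod and Prelp and in 37.4% of all promoters. GGGCGG (the GC box) was found in Bgn and Podn and in 35.7% of all. The E-box CANNTG was in 6 of the 7 genes with a promoter, all but Omd, and in 72.3% of all. GGAATG, a TEAD-type site, was in Ogn and in 14.7% of all, and the AP-1 site TGANTCA was in none of the 7 genes and in 7.81% of all. In Ogn, TATAAA on the plus strand at -227 overlaps its match on the minus strand at -229, and an E-box at -39 overlaps the end of TTGAATTCCAC. Such matches describe letters and show no binding.

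The libraries held 11906701 to 19191649 counted reads. Levels are given as CPM (counts per 1e+06 counted reads, TMM-normalised). Before TMM normalisation, 3 reads in a library came to 0.156 to 0.252 per 1e+06 counted reads. The fewest reads of any of the 9 genes in a library were the 47 of Omd with both hairpins. On principal component 1, which held 78.9% of the variance, the 9 induced libraries lay between -52.4 and -16.2 and the uninduced controls at 117 to 120. Trim28 averaged 103 ± 6.4 CPM with both hairpins, 58.4 ± 5.95 with the Trim28 hairpin, 328 ± 38.3 in the induced controls and 249 ± 24.8 in the uninduced controls (SD, n = 3 each). Setdb1 averaged 63.1 ± 8.21 CPM with both hairpins, 122 ± 1.36 with the Trim28 hairpin, 81.2 ± 4.26 in the induced controls and 60.7 ± 4.28 in the uninduced controls (SD, n = 3 each). With both hairpins Setdb1 was lower than in the induced controls (log2 change -0.36, edgeR adjusted p = 0.00369) but did not pass against the uninduced controls (0.06, 0.598). Against the Trim28 hairpin, Trim28 itself was higher with both hairpins (log2 change 0.82, edgeR adjusted p = 4.19e-05).

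Markers of cell types were summed per library. All 12 fibroblast markers had reads in every group, with sums of 20800 to 23700 CPM with both hairpins, 15700 to 17200 with the Trim28 hairpin, 17600 to 25000 in the induced controls and 27300 to 31400 in the uninduced controls. The 9 epithelial markers summed to 1020 to 1270 CPM with both hairpins, 1790 to 2030 with the Trim28 hairpin, 1810 to 2290 in the induced controls and 23.2 to 25.9 in the uninduced controls, where Esrp1 had no read. The 8 pluripotency markers summed to 15.1 to 28.2 CPM with both hairpins, 38.3 to 46.3 with the Trim28 hairpin, 48.2 to 73.4 in the induced controls and 0.125 to 0.647 in the uninduced controls, where 5 of them had no read. Smooth muscle markers summed to 2460 to 3020 CPM with both hairpins, 1710 to 2040 with the Trim28 hairpin, 949 to 1100 in the induced controls and 2580 to 2970 in the uninduced controls. Tendon markers summed to 20.6 to 26.3 CPM with both hairpins and 19.6 to 20.4 with the Trim28 hairpin. They had 18.5 to 25.5 in the induced controls and 37.9 to 43.2 in the uninduced controls. Cartilage markers summed to 26.3 to 42 CPM with both hairpins and 23.4 to 32 with the Trim28 hairpin. They had 39.3 to 50.1 in the induced controls and 66.2 to 79 in the uninduced controls. Bone markers summed to 65.7 to 75.5 CPM with both hairpins and 47.6 to 54.5 with the Trim28 hairpin. They had 52.6 to 64.9 in the induced controls and 54.1 to 59.2 in the uninduced controls. Among them Alpl averaged 19.2 CPM with both hairpins and 0.868 in the uninduced controls. Of the 4 tested bone markers 1 rose, 2 fell and 1 did not pass between these 2 groups. The 7 macrophage markers in the table summed to 42.9 to 51.7 CPM with both hairpins, 54.3 to 62.6 with the Trim28 hairpin, 52.1 to 63.1 in the induced controls and 5.18 to 6.62 in the uninduced controls. Most of this in the induced libraries was Laptm5, at 35.6 to 51.5 CPM, while Emr1 and Tyrobp had no read with the Trim28 hairpin. The 7 endothelial markers summed to 47.1 to 54.7 CPM with both hairpins, 71.1 to 75.9 with the Trim28 hairpin, 48.7 to 62.4 in the induced controls and 12.5 to 13.6 in the uninduced controls. Most of the endothelial sum in the induced libraries was Tek, at 38.2 to 64.5 CPM. What part these shifts of markers have in the values below was not tested, and in RNA from whole cultures fewer cells of a type and less RNA per cell cannot be told apart.

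**Figure D1:**
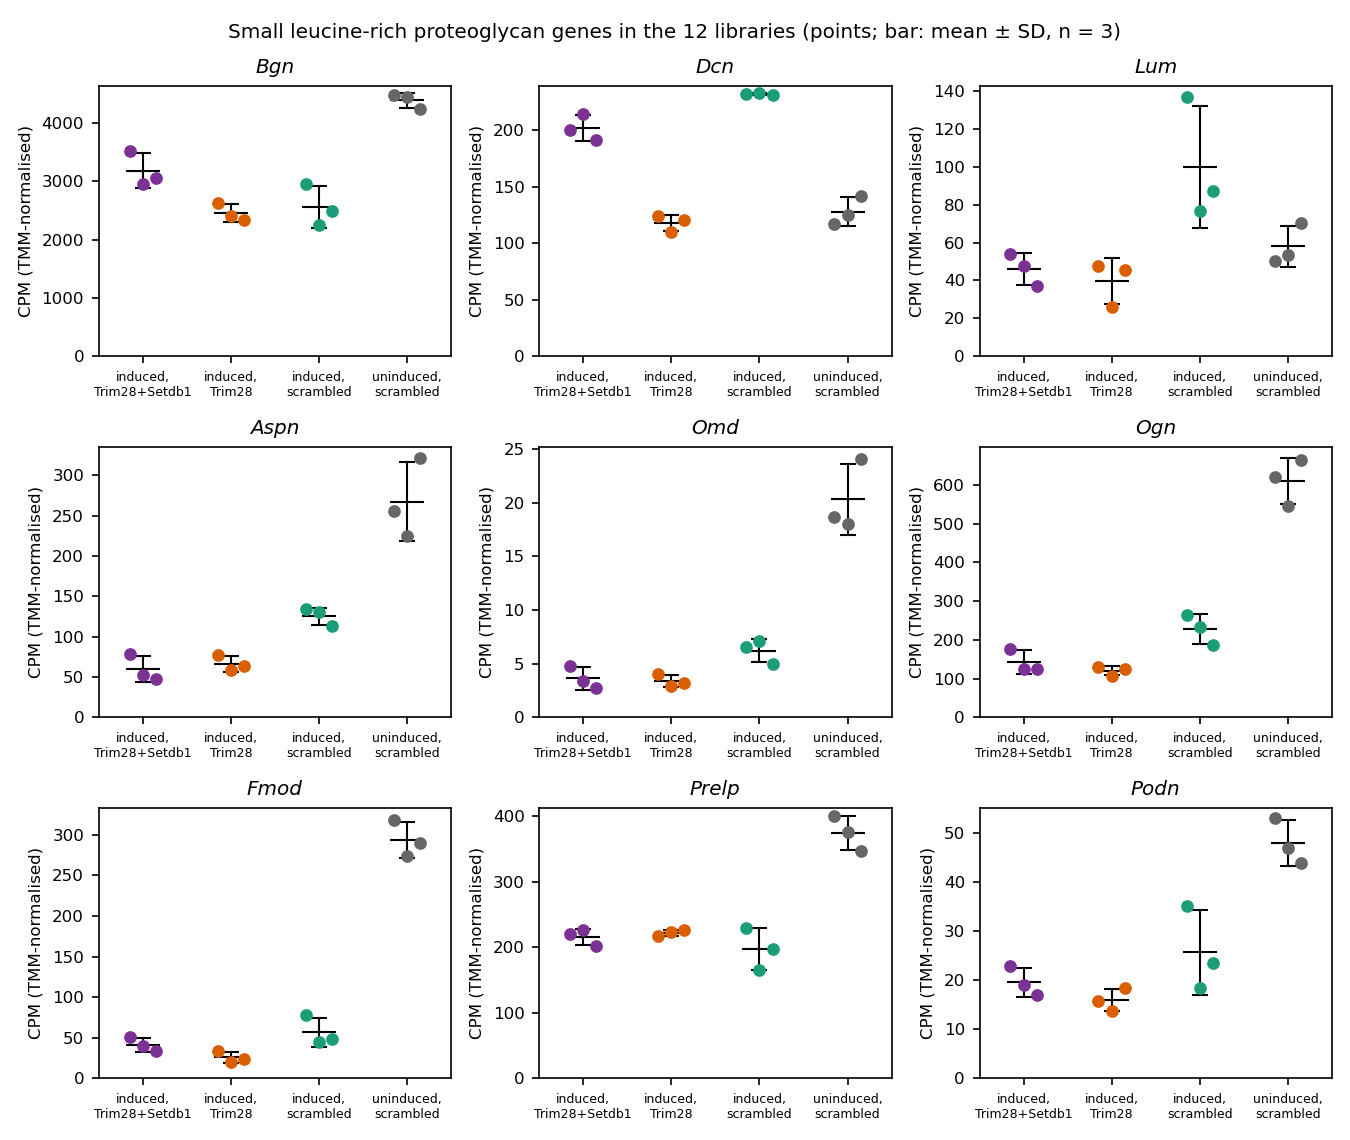
The 9 genes in the 12 libraries. Points are libraries (y axis, TMM-normalised CPM from 0), bars are mean ± SD of 3 libraries, and groups run from both hairpins to uninduced controls. Dcn and Lum were highest in the induced controls (232 and 100 CPM), while the other 7 were highest in the uninduced controls.

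The class I genes differed widely in level. Bgn, the most abundant of the 9, is a carrier of chondroitin or dermatan sulfate chains that in soluble form stimulates the Toll-like receptors Tlr2 and Tlr4. It had 3520, 2960 and 3060 CPM with both hairpins, 2630, 2410 and 2340 with the Trim28 hairpin, 2950, 2250 and 2500 in the induced controls and 4480, 4450 and 4240 in the uninduced controls. The uninduced controls stood above all induced libraries, and the Trim28 hairpin libraries lay within the range of the induced controls. Dcn, which binds collagen and TGF-beta and damps signalling by the receptors Egfr and Met, had 200, 214 and 191 CPM with both hairpins, 124, 110 and 121 with the Trim28 hairpin, 232, 233 and 231 in the induced controls and 117, 125 and 142 in the uninduced controls. Here the induced controls were highest, the cells with both hairpins came just below without overlap, and the Trim28 hairpin libraries mixed with the uninduced controls. Aspn, a family member without a glycosaminoglycan chain that binds collagen and TGF-beta, had 78.1, 53 and 47.6 CPM with both hairpins, 77.2, 58.1 and 63.3 with the Trim28 hairpin, 134, 130 and 113 in the induced controls and 255, 225 and 321 in the uninduced controls. The hairpin groups overlapped each other and lay below the induced controls, which lay below the uninduced controls.

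Of the class II genes, Lum spaces the collagen fibrils of the cornea and skin. It had 53.7, 47.7 and 37.1 CPM with both hairpins, 47.8, 25.9 and 45.7 with the Trim28 hairpin, 137, 76.7 and 87.3 in the induced controls and 50.4, 53.4 and 70.3 in the uninduced controls. All induced controls were above all other libraries, and the replicate with 137 CPM stood well above its group. Fmod, a regulator of fibril growth and cross-linking in tendon, had 51, 39.3 and 34.2 CPM with both hairpins, 33.5, 20.1 and 24.1 with the Trim28 hairpin, 77.6, 45 and 47.9 in the induced controls and 318, 274 and 290 in the uninduced controls. Its induced libraries were all far below the uninduced controls, and the cells with both hairpins overlapped the induced controls. Omd, a keratan sulfate proteoglycan of bone, had the lowest level, with 4.82, 3.36 and 2.74 CPM with both hairpins, 4, 2.89 and 3.21 with the Trim28 hairpin, 6.54, 7.12 and 5 in the induced controls and 18.7, 18 and 24.1 in the uninduced controls. Both hairpin groups lay below the induced controls without overlap, and these lay below the uninduced controls. Prelp, which binds heparan sulfate through a basic tail and is thought to tie basement membrane to collagen, had 220, 226 and 202 CPM with both hairpins, 218, 224 and 226 with the Trim28 hairpin, 230, 166 and 197 in the induced controls and 400, 377 and 347 in the uninduced controls. For Prelp the 3 induced groups overlapped each other and lay below the uninduced controls.

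Ogn and Podn were the class III and class V members. Ogn, also called mimecan, is a keratan sulfate proteoglycan in the cornea that affects fibril width. It had 177, 124 and 124 CPM with both hairpins, 129, 106 and 124 with the Trim28 hairpin, 264, 234 and 187 in the induced controls and 621, 546 and 663 in the uninduced controls. As for its neighbours Aspn and Omd, the hairpin groups overlapped at the bottom and the uninduced controls were on top. Podn, a collagen-binding protein that restrains growth of smooth muscle cells, had 22.9, 19 and 17 CPM with both hairpins, 15.8, 13.7 and 18.3 with the Trim28 hairpin, 35.2, 18.4 and 23.5 in the induced controls and 53.1, 47 and 43.8 in the uninduced controls. The induced controls of Podn spread from 18.4 to 35.2 CPM and overlapped the cells with both hairpins.

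Factor induction split the family. Between induced and uninduced controls, Dcn and Lum rose and the other 7 genes fell, and no library of either group lay within the range of the other for any of the 9. All 9 genes passed edgeR's expression filter, and so many genes moved that 65.3% of the 14520 genes tested were called (32.7% rose, 32.6% fell, at adjusted p under 0.05), and 32.4% were higher and 32.2% lower without overlap. The 9 called genes of 9 stand beside that share. The median log2 change was -0.92 over the 9 genes and -0.02 over all genes tested. Of the 12 fibroblast markers, 9 fell and 3 did not pass in this comparison, and the summed epithelial markers were higher, as given above.

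Dcn rose by 0.86 ± 0.076 on the log2 scale (SE, edgeR adjusted p = 4.84e-08), a fold of 1.81, and Lum by 0.79 ± 0.225 (edgeR adjusted p = 0.00577). Without replicate 1 of the induced controls, the highest library, the change of Lum was 0.51 (edgeR adjusted p = 0.0354). The deepest fall was that of Fmod, whose log2 change was -2.37 ± 0.195 (edgeR adjusted p = 2.81e-08), which left 0.194 of the uninduced level. The chromosome 13 neighbours followed, Omd with -1.72 ± 0.176 (edgeR adjusted p = 2.66e-07), Ogn with -1.42 ± 0.138 (1.46e-07) and Aspn with -1.09 ± 0.157 (1.32e-05). These 4 genes fell at least 2-fold. Smaller falls were seen for Prelp, -0.92 ± 0.0941 (edgeR adjusted p = 2.65e-07), Podn, -0.89 ± 0.172 (0.000258), and Bgn, -0.77 ± 0.0938 (1.87e-06). Each of the 9 calls and directions held in all 21 alternative settings.

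**Figure D2:**
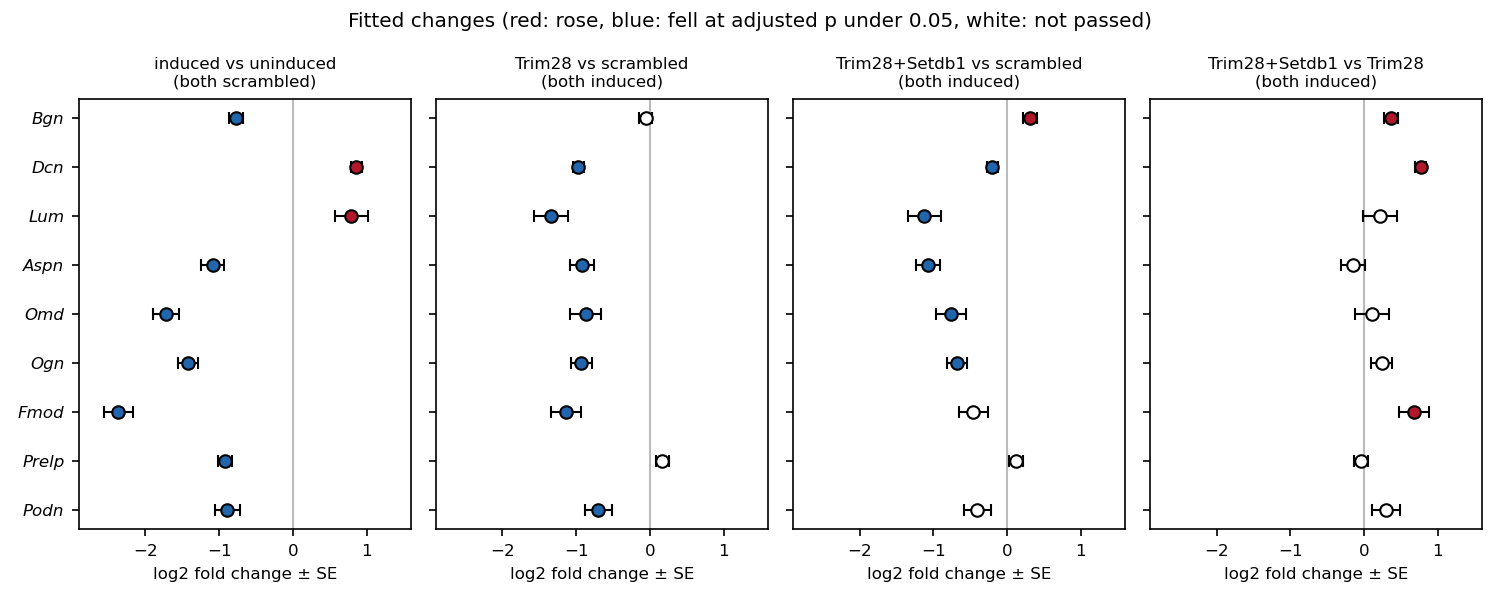
Fitted log2 fold changes (x axis) ± SE of the 9 genes in 4 comparisons, each panel named with the group in question over the group it is set against. Red points rose, blue points fell and white points did not pass at adjusted p under 0.05. The replicate number was not used as a block. Dcn and Lum are the only 2 that rose with induction, and Dcn rose by 0.77 when cells with both hairpins were set against the Trim28 hairpin.

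With the Trim28 hairpin in induced cells, most of the family was lower. Against the induced controls 7 of the 9 genes fell, none rose, and Bgn and Prelp did not pass. Over all genes tested 24.9% were called, 11.8% falling and 13.1% rising, and 18.4% were lower without overlap, as were the same 7 of the 9. The median log2 change was -0.92 over the 9 genes and 0 over all. The genes that fell were Dcn and Lum, which rose with induction, and Fmod, Ogn, Omd, Aspn and Podn, which fell with it. Because the induced controls enter both comparisons, the values are only set side by side.

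Lum fell by 1.34 ± 0.23 on the log2 scale (edgeR adjusted p = 0.000488) and Fmod by 1.14 ± 0.205 (edgeR adjusted p = 0.000667). Dcn fell by 0.97 ± 0.0762 (edgeR adjusted p = 1.59e-07), to 0.511 of the level of the induced controls. On chromosome 13 the log2 changes were -0.93 ± 0.139 for Ogn (edgeR adjusted p = 0.000117), -0.92 ± 0.161 for Aspn (0.000475) and -0.87 ± 0.213 for Omd (0.00648). Podn fell by 0.70 ± 0.184 (edgeR adjusted p = 0.0101), but without replicate 2 of the Trim28 hairpin its adjusted p was 0.0553, and without replicate 1 of the induced controls its change was -0.42 (0.0459). For Bgn the log2 change was -0.06, with a 95% interval of -0.26 to 0.14 (edgeR adjusted p = 0.69). Prelp had 0.17 with an interval of -0.03 to 0.37 (edgeR adjusted p = 0.217), and without replicate 1 of the induced controls it passed as a rise (0.28, adjusted p = 0.024). The 12 fibroblast markers did not move one way in this comparison. Col1a1, Col1a2, Col3a1, Pdgfra and Fap fell, Vim, Thy1, Twist1 and Prrx1 rose, and 3 did not pass. The lower sum of these markers is mainly that of the 3 collagens.

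With both hairpins the pattern was mixed. Against the induced controls Bgn rose, Lum, Aspn, Omd, Ogn and Dcn fell, and Fmod, Podn and Prelp did not pass, beside 36.7% of all genes called (18.1% rose, 18.6% fell). These calls are from the fit without the replicate number as a block. With the block some of them changed, as given below. Without overlap 1 of the 9 genes was higher and 5 were lower, beside 23.3% and 21.8% of all genes. The median log2 change was -0.46 over the 9 genes and 0 over all. Of the 12 fibroblast markers 5 rose, 2 fell and 5 did not pass.

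Lum fell by 1.12 ± 0.227 (edgeR adjusted p = 0.00125) and Aspn by 1.07 ± 0.162 (edgeR adjusted p = 8.38e-05). For Omd and Ogn the log2 changes were -0.76 ± 0.208 (edgeR adjusted p = 0.00974) and -0.68 ± 0.138 (0.00107), and Omd reached only 0.05 without replicate 3 of the cells with both hairpins. Dcn had a small change of -0.20 ± 0.0749 (edgeR adjusted p = 0.0443). That call was lost in 6 of the alternatives, with adjusted p up to 0.131 when replicate 3 with both hairpins was left out and 0.112 when replicate 1 was. Bgn rose by 0.31 ± 0.0933 (edgeR adjusted p = 0.0164). Its call was lost without replicate 2 (adjusted p = 0.0741) or 3 (0.0607) of the induced controls or without replicate 1 with both hairpins (0.1). Fmod stood at -0.46 with a 95% interval of -0.88 to -0.04 (edgeR adjusted p = 0.0807), Podn at -0.40 with -0.78 to -0.02 (0.0932) and Prelp at 0.12 with -0.07 to 0.32 (0.321). Same-numbered libraries of these 2 groups deviated together, and with the replicate number as a block in a fit of the 2 groups Fmod (-0.44, adjusted p = 0.0016) and Podn (-0.37, 0.0251) passed as well and Dcn had an adjusted p of 0.0157, so that 7 genes fell. Blocked over all 12 libraries, Fmod passed (0.00584) and Dcn did not (0.0502). Without replicate 2 of the induced controls Podn passed too (-0.59, adjusted p = 0.00963), and without replicate 1 with both hairpins so did Fmod (-0.63, 0.0332). Fmod also passed when scaled by library totals (-0.51, adjusted p = 0.0459), Fmod (1.27e-06) and Podn (0.00105) with no filter on low counts, and Prelp without replicate 1 of the induced controls (0.23, 0.0402).

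The comparison of cells with both hairpins against cells with the Trim28 hairpin tests how the 2 knockdowns differ. Dcn, Fmod and Bgn rose, no gene of the 9 fell, and 6 did not pass, beside 21.7% of all genes called (10% rose, 11.7% fell). The same 3 were higher without overlap and none was lower, beside 23.7% and 23.1% of all genes. The median log2 change was 0.24 over the 9 genes and 0 over all. Dcn rose by 0.77 ± 0.076 (edgeR adjusted p = 5.53e-06), a fold of 1.7, and held in every alternative. Fmod rose by 0.68 ± 0.207 (edgeR adjusted p = 0.0275), a call lost in 7 alternatives, among them DESeq2 (0.0668) and the fit without replicate 1 with both hairpins (0.51, adjusted p = 0.135) or replicate 2 of the Trim28 hairpin (0.53, 0.133). Bgn rose by 0.37 ± 0.0934 (edgeR adjusted p = 0.0101), and this was lost without replicate 1 with both hairpins (0.0692) or replicate 3 of the Trim28 hairpin (0.0541). Podn had 0.30 (edgeR adjusted p = 0.275), Ogn 0.24 (0.232, and 0.0186 with no filter on low counts), Lum 0.22 (0.559), Omd 0.11 (0.765), Prelp -0.04 (0.786) and Aspn -0.15 (0.552). The 95% intervals of these 6 reached from -0.50 at the lowest, for Aspn, to 0.71 at the highest, for Lum. Of the 12 fibroblast markers 7 rose and 5 did not pass here, summed smooth muscle markers were higher with both hairpins, and so was Trim28 itself.

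Set against the uninduced controls, the hairpin groups show where the levels ended. With both hairpins Dcn was above the uninduced controls (log2 change 0.65 ± 0.0759, edgeR adjusted p = 1.62e-06), 7 genes were lower and Lum did not pass (-0.33, interval -0.82 to 0.16, adjusted p = 0.234), beside 58.8% of all genes called (31.6% rose, 27.2% fell). With the Trim28 hairpin 8 of the 9 were lower, beside 66.6% of all genes called (34.1% rose, 32.6% fell), and Dcn had -0.11 with an interval of -0.28 to 0.05 (edgeR adjusted p = 0.202). Fmod was at -2.83 with both hairpins and -3.51 with the Trim28 hairpin, the lowest values of the 9. Ogn, Omd and Aspn were between -2.48 and -2.10 with both hairpins, and between -2.59 and -2.01 with the Trim28 hairpin. Lum was at -0.54 with the Trim28 hairpin (edgeR adjusted p = 0.0498), a call lost in 11 of 21 alternatives, with -0.31 (0.212) when replicate 2 of the Trim28 hairpin was left out and the highest adjusted p, 0.272, without replicate 3 of the uninduced controls. Podn, Prelp and Bgn were lower in both, at -1.29, -0.80 and -0.47 with both hairpins and at -1.59, -0.75 and -0.83 with the Trim28 hairpin.

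The order of the 4 groups was thus not the same for all members. For Aspn, Omd and Ogn it ran from uninduced controls over induced controls to the hairpin groups, which did not pass against each other. Fmod and Podn had the same order. There the induced controls and the cells with both hairpins did not pass against each other in the fit without the replicate block. Between the hairpin groups Fmod passed (edgeR adjusted p = 0.0275) and Podn did not. Dcn ran from induced controls over both hairpins to uninduced controls and the Trim28 hairpin, with the last 2 not told apart by the test. For Lum the 3 groups below the induced controls had neighbours that did not pass. Bgn and Prelp were highest in the uninduced controls, and the 3 induced groups of Prelp did not pass against each other. All 9 orders were the same when scaled by library totals or by RLE size factors.

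**Figure D3:**
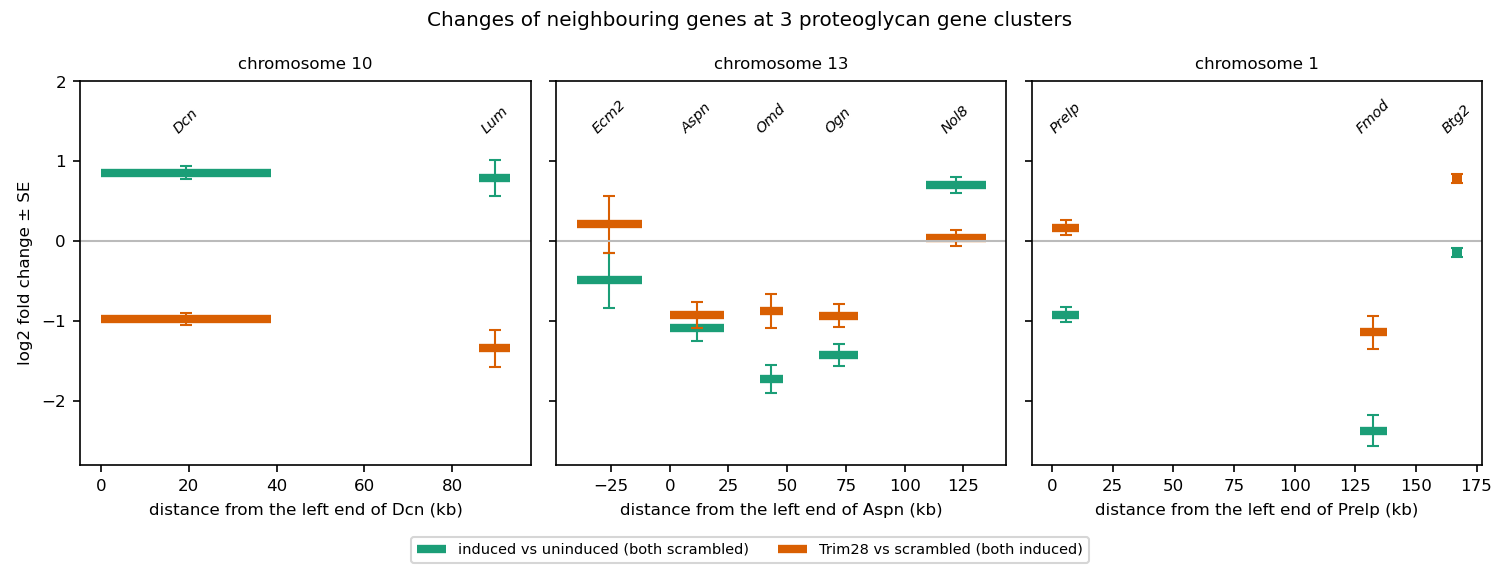
Log2 fold changes ± SE of the genes at 3 clusters (y axis) by distance from the left end of Dcn, Aspn or Prelp in kb (x axis). Bars span each gene, green sets induced over uninduced controls and orange sets the Trim28 hairpin over induced controls. Aspn, Omd and Ogn lie together below 0 in both comparisons, and Nol8 next to them rose with induction by 0.70.

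The genes beside the members moved as the members did in some cases and not in others. Nol8, 28.8 kb beyond Ogn, averaged 46.9 ± 7.44 CPM in the induced controls and 28.7 ± 2.38 in the uninduced controls (SD, n = 3 each), a rise of 0.70 ± 0.0982 (edgeR adjusted p = 9.14e-06). Its change with the Trim28 hairpin was 0.04 (edgeR adjusted p = 0.789). Cenpp, which spans the 3 genes on the opposite strand, rose with induction by 0.63 ± 0.148 (edgeR adjusted p = 0.00134) and fell with the Trim28 hairpin by 0.42 ± 0.143 (edgeR adjusted p = 0.0413). Ecm2, the class I relative 11.7 kb before Aspn, averaged 1 CPM or less in every group and did not pass in either comparison. Beside Fmod, Btg2 fell by 0.14 ± 0.0563 with induction (edgeR adjusted p = 0.0331) and rose by 0.78 ± 0.0564 with the Trim28 hairpin (edgeR adjusted p = 5.74e-08). Kera, a corneal relative 34.5 kb beyond Lum, averaged 0.458 CPM at most and was not tested. Btg1, 856.7 kb before Dcn, fell by 0.63 ± 0.0853 with induction (edgeR adjusted p = 6.36e-06), while Dcn rose. Haus7 beside Bgn fell by 0.67 ± 0.106 with induction (edgeR adjusted p = 3.58e-05), as Bgn did. Scp2, which overlaps Podn, fell with it by 0.43 ± 0.0622 (edgeR adjusted p = 1.43e-05).

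Profiles were also compared directly, as the root-mean-square difference between log2 CPM values centred over the 12 libraries. Among the 9 genes the closest pairs were Ogn and Omd, at 0.172, Bgn and Prelp, at 0.177, Ogn and Aspn, at 0.214, and Omd and Aspn, at 0.251. Dcn and Fmod were farthest apart, at 1.49. Dcn and Lum, also neighbours, differed by 0.469, and 4927 of 13327 candidate genes were closer to Dcn than Lum was. In contrast, only 2 candidates were closer to Ogn than Omd was. For Bgn, 730 candidates were closer than Prelp was, so their small difference sets that pair apart less. The libraries share their groups in all these distances, which are descriptions.

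The genes with the most similar profiles were, over the 12 libraries, Lsp1 (0.152) and Csrp2 (0.167) for Dcn, and Moxd1 (0.272) and Nrep (0.283) for Lum. For Bgn they were Plcd1 (0.0563) and Pcdhga12 (0.0569), and Pcdhga12 belongs to a cluster of related protocadherin genes, which can make its count uncertain. Fmod was closest to Foxp2 (0.244) and Ptn (0.264), Ogn to Ppap2b (0.144) and Clip4 (0.172), Omd to Il1rn (0.171) and Ogn (0.172), and Aspn to Ogn (0.214) and Cpa4 (0.219). Prelp was closest to Lynx1 (0.0777) and Chrd (0.083), and Podn to Gas1 (0.118) and Fcgrt (0.128). Lsp1, the closest to Dcn, averaged 97.6 CPM with both hairpins, 65.9 with the Trim28 hairpin, 109 in the induced controls and 67.7 in the uninduced controls. Ptn, a secreted heparin-binding growth factor, averaged 37.5 CPM with both hairpins, 20.4 with the Trim28 hairpin, 60.2 in the induced controls and 208 in the uninduced controls.

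**Figure D4:**
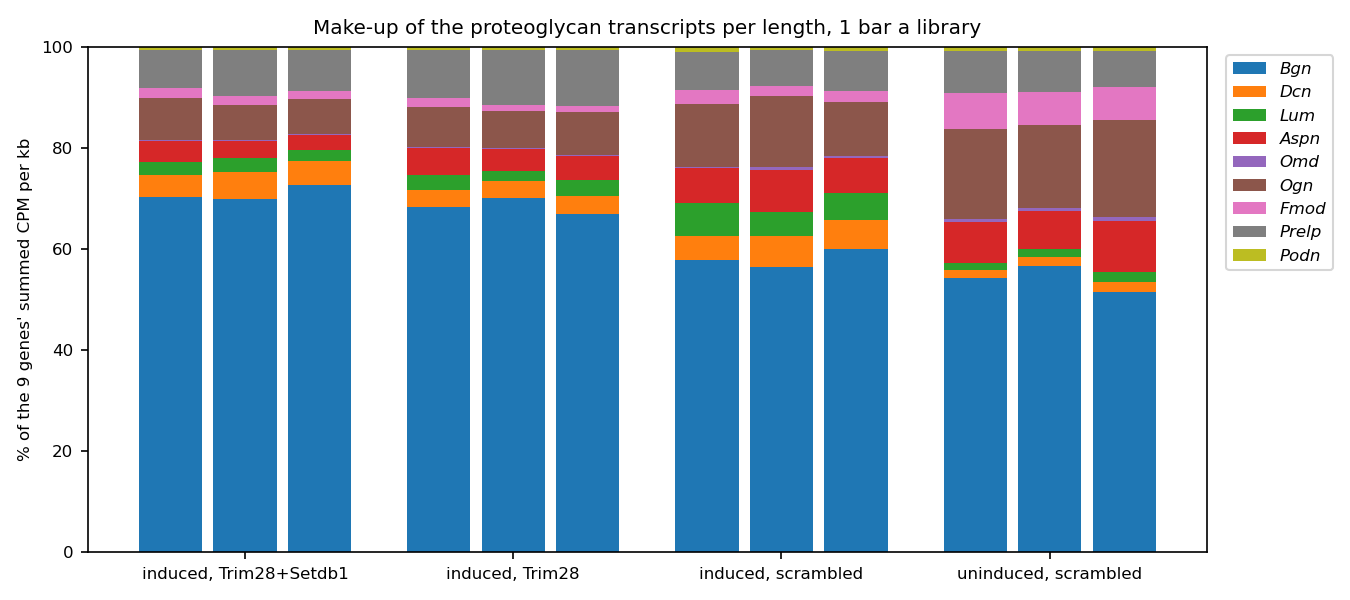
Share of each gene in the summed CPM per kb of exon of the 9 genes (y axis, %), with 1 bar for each library. Bgn takes 70 to 72.7% with both hairpins, 66.9 to 70.2% with the Trim28 hairpin, 56.4 to 60% in the induced controls and 51.6 to 56.7% in the uninduced controls.

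Levels were set beside each other per kb of exon. Summed as CPM, the 9 genes made 3910 ± 365 with both hairpins, 3070 ± 177 with the Trim28 hairpin, 3540 ± 473 in the induced controls and 6190 ± 105 in the uninduced controls (SD, n = 3 each). Without Bgn the sums were 730 ± 76.6 CPM with both hairpins, 612 ± 45.3 with the Trim28 hairpin, 973 ± 124 in the induced controls and 1800 ± 121 in the uninduced controls (SD, n = 3 each), so that most reads of the 9 genes were those of Bgn. Per kb, Bgn averaged 521 CPM with both hairpins, 403 with the Trim28 hairpin, 420 in the induced controls and 719 in the uninduced controls. Its share of the sum per kb over the 9 genes averaged 71.1% with both hairpins, 68.5% with the Trim28 hairpin, 58.1% in the induced controls and 54.2% in the uninduced controls. Ogn, the next most abundant per kb in the uninduced controls, held 7.49% with both hairpins, 7.92% with the Trim28 hairpin, 12.3% in the induced controls and 17.9% in the uninduced controls. Fmod held 1.7% with both hairpins, 1.32% with the Trim28 hairpin, 2.34% in the induced controls and 6.68% in the uninduced controls. For Dcn the shares were 4.74% with both hairpins, 3.45% with the Trim28 hairpin, 5.55% in the induced controls and 1.65% in the uninduced controls. The shares add up to the whole in each library and are not independent of each other. They depend on the exon length taken: with its longest transcript in place of all exons, Bgn averaged 1650 CPM per kb in the uninduced controls.

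**Figure D5:**
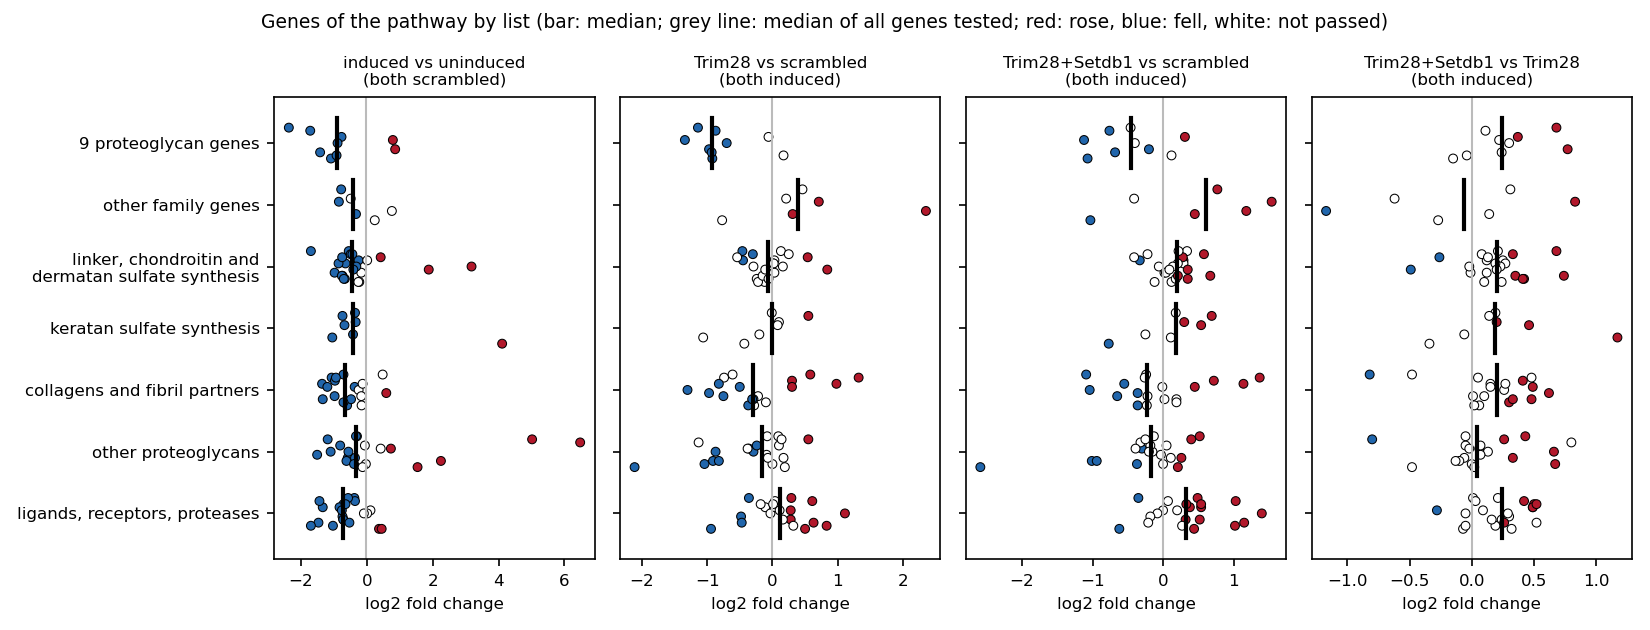
Log2 fold changes (x axis) of the 9 genes and of 6 lists of related genes in 4 comparisons. Points are genes, red where they rose, blue where they fell and white where they did not pass, the black bar is the list's median and the grey line the median of all genes tested. The median of the 9 genes was -0.92 in the first 2 panels, and that of the other family genes 0.39 with the Trim28 hairpin.

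Related genes were read from lists written from general knowledge. The counts here and in the list paragraphs below stand beside the shares of all genes tested. With induction 32.7% rose and 32.6% fell, and with the Trim28 hairpin against the induced controls 13.1% and 11.8%. With both hairpins 18.1% rose and 18.6% fell against the induced controls, and 10% and 11.7% against the Trim28 hairpin. Of 9 further family genes 6 were tested, and with induction 3 fell and none rose. Podnl1, the close relative of Podn, fell by 0.85 ± 0.239 (edgeR adjusted p = 0.005). With the Trim28 hairpin 3 of the 6 rose and none fell, with a median log2 change of 0.39. Nyx, a retinal relative, had 1.14 to 1.18 CPM with the Trim28 hairpin and 0.162 to 0.25 in the induced controls, about the level of 3 reads. Its fitted rise of 2.35 ± 0.329 (edgeR adjusted p = 6.34e-05) is therefore uncertain in size. Tsku, a secreted regulator of Wnt and other signals, averaged 69.8 ± 0.407 CPM with the Trim28 hairpin and 56.1 ± 9.2 in the induced controls and rose by 0.31 ± 0.0971 (edgeR adjusted p = 0.0261). With both hairpins 4 rose and 1 fell against the induced controls, Podnl1 rising by 1.54 ± 0.222 (edgeR adjusted p = 5.36e-05). When both hairpins were set against the Trim28 hairpin, Podnl1 rose by 0.83 ± 0.204 (edgeR adjusted p = 0.00843) and Nyx fell by 1.17 ± 0.271 (edgeR adjusted p = 0.00583), and the other 4 did not pass.

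Most enzymes that build the sugar chains were lower with induction. Of 22 genes for the linker and for chondroitin or dermatan sulfate, 15 fell, 3 rose and 4 did not pass with induction. Csgalnact1, which helps start chondroitin chains, averaged 26.9 CPM in the induced controls and 87 in the uninduced controls and fell by 1.70 ± 0.114 (edgeR adjusted p = 1.52e-09). Dse, the epimerase that makes dermatan sulfate, fell by 0.76 ± 0.0781 (edgeR adjusted p = 2.58e-07), and the sulfotransferase Chst3 rose by 1.88 ± 0.17 (edgeR adjusted p = 5.67e-08). Of the 22, 3 fell and 2 rose with the Trim28 hairpin, near the 11.8% and 13.1% of all genes tested. With both hairpins against the induced controls 7 rose and 1 fell, and with both hairpins against the Trim28 hairpin 6 rose and 2 fell. Chst11, a chondroitin 4-sulfotransferase, rose with both hairpins by 0.67 ± 0.0785 against the induced controls (edgeR adjusted p = 7.7e-06). Against the Trim28 hairpin it rose by 0.74 ± 0.0786 (1.08e-05). Of 7 tested keratan sulfate genes 6 fell with induction, St3gal3 by 0.74 ± 0.11 (edgeR adjusted p = 1.93e-05), while B3gnt7, which extends keratan sulfate chains, rose (edgeR adjusted p = 9.78e-07). It had 2.43 to 3 CPM in the induced controls and 0 to 0.257 in the uninduced controls, where so few reads leave the size of the rise uncertain. Of the 7, 1 rose with the Trim28 hairpin against the induced controls, near the 13.1% of all genes tested. With both hairpins 3 rose and 1 fell against the induced controls, and 3 rose against the Trim28 hairpin.

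Most collagens and other fibril proteins that the proteoglycans bind were lower with induction. Of 18 genes 12 fell and 1 rose with induction, with a median log2 change of -0.66. Fn1, fibronectin, averaged 8440 CPM in the induced controls and 19300 in the uninduced controls and fell by 1.20 ± 0.0804 (edgeR adjusted p = 1.48e-09), and Col5a2 fell by 0.97 ± 0.0722 (edgeR adjusted p = 5.54e-09). Col5a3 was the gene that rose, by 0.59 ± 0.0919 (edgeR adjusted p = 3.14e-05). Of the 18, 8 fell and 5 rose with the Trim28 hairpin, with a median of -0.30. Col3a1, a collagen of extensible tissues, averaged 1530 ± 193 CPM with the Trim28 hairpin and 3770 ± 701 in the induced controls and fell by 1.30 ± 0.128 (edgeR adjusted p = 1.69e-06), and Col5a3 fell by 0.97 ± 0.0934 (edgeR adjusted p = 1.27e-06). With both hairpins against the induced controls 6 fell and 4 rose, Col3a1 falling by 1.04 ± 0.127 (edgeR adjusted p = 1.17e-05) and Col5a2 rising by 0.72 ± 0.0719 (edgeR adjusted p = 1.35e-06). Set against the Trim28 hairpin, 6 rose and 1 fell with both hairpins.

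Other proteoglycan core proteins moved in both directions. Of 20 tested, 11 fell and 5 rose with induction, the glypican Gpc4 falling by 1.19 ± 0.077 (edgeR adjusted p = 8.91e-10) and Srgn, a proteoglycan of secretory granules, rising (edgeR adjusted p = 6.97e-10). Srgn had 6.66 to 10.7 CPM in the induced controls and 0.0647 to 0.499 in the uninduced controls. Against the induced controls 8 of them fell and 1 rose with the Trim28 hairpin. Versican (Vcan) averaged 265 ± 6.17 CPM with the Trim28 hairpin and 545 ± 48.9 in the induced controls and fell by 1.04 ± 0.0864 (edgeR adjusted p = 2.83e-07), and aggrecan (Acan) fell by 2.11 ± 0.273 (edgeR adjusted p = 2.84e-05). With both hairpins against the induced controls 5 fell and 4 rose, and against the Trim28 hairpin 5 rose and 1 fell, Vcan rising by 0.67 ± 0.086 (edgeR adjusted p = 6.2e-05). Of 21 tested ligands, receptors and proteases of the family, 16 fell and 2 rose with induction. Among them Adamts5, an enzyme that cleaves aggrecan and versican, fell by 1.34 ± 0.0729 (edgeR adjusted p = 1.03e-10). In the cells with the Trim28 hairpin 8 rose and 4 fell, and with both hairpins 12 rose and 2 fell against the induced controls. Tlr2, a receptor of biglycan, averaged 26.8 ± 4 CPM with both hairpins, 21.9 ± 1.15 with the Trim28 hairpin and 10.1 ± 0.464 in the induced controls. It rose by 1.40 ± 0.111 (edgeR adjusted p = 1.02e-07) with both hairpins and by 1.11 ± 0.112 (2.26e-06) with the Trim28 hairpin. Of the 21, 6 rose and 1 fell when both hairpins were set against the Trim28 hairpin.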

How the data were processed

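RNA was measured in 12 libraries, 3 in each of 4 groups taken from the sample titles. The authors deposited raw read counts per gene, made with TopHat2 2.0.12, Bowtie 1.1 and HTSeq (version not stated), per the submitters' processing notes. No genome build was given in the sources used here. Of 24207 identifiers, 23882 are in GENCODE M21 (GRCm38), 18762 with the same start. GENCODE M21 gave strand and exon lengths, and RefSeq gave the promoters.

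Counts were fitted in R 4.3.3 by the robust quasi-likelihood test of edgeR 4.0.16 (TMM factors, 1 term per group, all 12 libraries). edgeR's filter (minimum count 10, minimum total 15) left 14520 genes, and Benjamini-Hochberg adjusted p under 0.05 over these in each of 6 comparisons was called. SE is the log2 change over the square root of F. Log2 CPM profiles used a prior count of 2. The alternatives were DESeq2 1.42.0, limma-voom (limma 3.58.1), other scalings and filters, the replicate number as a block, fits of 2 groups and each library left out. The fit was tested on simulated counts. Between replicates, chi-square values over genes were 1.94 to 18.1 times their degrees of freedom, above sampling noise, and none were merged. Mitochondrial transcripts took 1.78 to 2.37% of counts. Floors and intervals cover counting error or the spread of these libraries only.

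All 9 genes are named in every comparison. From each further list and comparison the names come from the 2 genes of lowest p that moved as most of the list did and the 1 that moved against it, and for likeness from the 2 closest of 13327 candidates, without predicted genes or clones. Neighbours are the adjacent genes of the table. The members and lists were chosen with earlier results of these data known. Same-numbered libraries of the cells with both hairpins and the induced controls deviated together (r = 0.31, 0.141 and 0.188 over genes for replicates 1, 2 and 3). The replicate number was therefore also used there as a block, from the data and not from the labels. The main values and calls come from the fit without the block, in that comparison too. With the Trim28 hairpin against the induced controls r was positive for every pair as well (0.158, 0.061 and 0.096). So it was with both hairpins against the Trim28 hairpin (0.191, 0.032 and 0.093). In the comparisons with the uninduced controls some or all pairs had a negative r.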

Additional observations from a re-analysis of the deposited data

How the results depend on the processing

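Over 21 alternatives (22 for both hairpins against the induced controls), 1099 of 1143 changes of the 9 genes stayed on their side of the threshold, 31 lost the call and 13 gained it. No called change turned its sign, but 3 changes that had not passed did: Bgn with the Trim28 hairpin was at 0.04 without replicate 1 of the induced controls, and with both hairpins against the Trim28 hairpin Lum was at -0.02 without replicate 2 of the Trim28 hairpin and Omd at -0.13 without replicate 1 with both hairpins. Of 508 counts of genes or of the 9, 494 stayed within 1.5 times. When cells with both hairpins were set against the Trim28 hairpin in a fit of these 2 groups, 2387 genes rose, against 1452 with all 12 libraries. Leaving out each library gave there 764 to 1775 genes that rose, 1026 to 2018 that fell and 1 to 3 of the 9 that rose. With both hairpins against the induced controls 0 to 2 of the 9 rose and 3 to 6 fell, and with the Trim28 hairpin 0 to 1 rose. With the replicate block over all 12 libraries 2721 genes rose and 2796 fell with both hairpins against the induced controls, beside 2630 and 2694 without it. The block was also fitted for the other 5 comparisons. It gave 2007 genes that rose and 1843 that fell with the Trim28 hairpin against the induced controls. In none of the 5 comparisons did it change a call of the 9. The fit of 2 groups with the block was chosen after seeing the data. Scaling by library totals moved the median of all genes by 0.13 between induced and uninduced controls and by 0.11 between the Trim28 hairpin and the uninduced controls. The causes of these shifts were not tested. With 3 libraries a group, Omd at 47 to 372 reads is the gene whose counting error is largest.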

Other observations

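Ratios of reads within a library, which need no scaling between libraries, also differed between groups. Dcn had 0.0569 to 0.0723 reads per read of Bgn with both hairpins, 0.0456 to 0.052 with the Trim28 hairpin, 0.0785 to 0.104 in the induced controls and 0.0262 to 0.0335 in the uninduced controls, and no 2 groups overlapped. Lum had 1.05 to 1.22 reads per read of Fmod with both hairpins, 1.29 to 1.9 with the Trim28 hairpin, 1.71 to 1.82 in the induced controls and 0.159 to 0.242 in the uninduced controls. For Dcn per read of Lum the ranges were 3.73 to 5.15 with both hairpins, 2.59 to 4.24 with the Trim28 hairpin, 1.69 to 3.04 in the induced controls and 2.02 to 2.34 in the uninduced controls. Here the controls overlapped each other, and the Trim28 hairpin overlapped the induced controls and the cells with both hairpins. For Lum per read of Fmod the Trim28 hairpin overlapped the induced controls as well.

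Further relatives had few reads or none. Epyc, the cartilage relative epiphycan, had no read in the 3 libraries with the Trim28 hairpin, where a count of 0 allows up to 3 reads in a library, and averaged 0.297 ± 0.185 CPM in the induced controls (SD, n = 3). Chad, chondroadherin, had no read in any induced library.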
